A study of Rattus norvegicus with 12 samples.

Results

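The antioxidant and glutathione genes described here are 41 rat genes fixed by name, in a list drawn up with earlier results of these data known: the transcription factor Nrf2 (Nfe2l2) and its inhibitor Keap1, and enzymes that make, reduce or use glutathione, thioredoxin and related thiols or remove superoxide and peroxides. Of the 41 names, 40 had an entry in a count table of 28727 named genes, and 35 had enough reads to be tested among 14669 tested genes. The cells were INS-1 832/13, a clonal line from a rat insulin-producing tumour that releases insulin when glucose rises. They were transduced with a control adenovirus expressing GFP or an adenovirus expressing ChREBPβ (mouse ChREBPβ with an mCherry tag, per the study's methods), the short, constitutively active isoform of the glucose-responsive factor ChREBP. With either virus the cells were kept in 2 mM or 11 mM glucose for 48 h, which gives 4 groups of 3 libraries (a, b and c), 12 in all. Every group carried a virus, so the GFP libraries are a control for transduction and there was no group without virus, and all libraries come from the same clonal tumour line. The labels do not say that the 3 libraries of a group came from separate cultures. The study's text speaks of independent experiments for these groups without saying what was repeated in each, so the p-values below are read as measuring the spread between these libraries, which may be in part technical.

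Nrf2 is a transcription factor that Keap1 holds in the cytoplasm and delivers for degradation. When Keap1 is modified by oxidants, Nrf2 accumulates, pairs with small Maf proteins and binds antioxidant response elements in the promoters of detoxifying and thiol genes. Glutathione is made from cysteine, glutamate and glycine by glutamate-cysteine ligase (Gclc, Gclm) and glutathione synthetase (Gss), is used by peroxidases, transferases and glutaredoxins, and is returned to its reduced form by glutathione reductase (Gsr) with NADPH. Thioredoxins, their reductases and the peroxiredoxins form a parallel route for peroxide removal. Pancreatic β-cells are known for low levels of catalase and glutathione peroxidase, which is why these genes are often followed when β-cells are exposed to high glucose.

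Promoter sequences were compared because these genes are often described as sharing the antioxidant response element. RefSeq promoter windows of the GRCr8 assembly were available for 33 of the 41 genes (39 windows), and the 250 bases before each start were searched on both strands. The core TGACNNNGC was found for 5 of the 33 genes, in 5 of 39 windows, against 10.1% of all 33469 windows. The E-box CACGTG, a motif of the family of factors to which ChREBP belongs, was found for 1 gene (Prdx4), against 5.59% of all windows. A match is a description of letters and was not tested for binding. In the tests below Gclm fell with ChREBPβ at both glucose levels. Sod2 rose at 2 mM alone (log2 0.28), a result lost with upper quartile factors and library totals, and Prdx1 and Txnrd1 passed at neither level. Whether a match is linked to a change was not tested. The matches of these 4 genes follow with their flanks, 5′ to 3′ on the gene's strand, with the match in capitals. It is written as its reverse complement in all 4.
Gclm: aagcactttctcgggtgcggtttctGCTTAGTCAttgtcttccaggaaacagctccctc
Prdx1: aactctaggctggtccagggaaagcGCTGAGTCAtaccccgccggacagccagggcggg
Sod2: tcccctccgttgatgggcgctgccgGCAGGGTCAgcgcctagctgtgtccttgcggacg
Txnrd1: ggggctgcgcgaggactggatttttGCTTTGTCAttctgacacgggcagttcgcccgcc

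These stretches lie at chr2:213031938-213031996 (plus strand, Gclm), chr5:135383746-135383804 (plus, Prdx1), chr1:50050170-50050228 (minus, Sod2) and chr7:22755949-22756007 (minus, Txnrd1). The matches lie 172, 135, 35 and 78 bases before the respective starts. Gstp1 also held a match but had too few reads to be tested. The 250 bases before the start of Gss, shown because this gene had the largest change of the group, held neither motif. They lie at chr3:164538307-164538556 on the minus strand.
Gss: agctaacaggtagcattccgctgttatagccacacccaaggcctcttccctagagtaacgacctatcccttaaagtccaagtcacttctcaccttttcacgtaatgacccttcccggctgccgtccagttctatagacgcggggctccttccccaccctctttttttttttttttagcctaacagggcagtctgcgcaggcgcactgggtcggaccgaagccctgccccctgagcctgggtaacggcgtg

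Library totals ranged from 25754488 to 60531215 counts. The mean total with ChREBPβ at 11 mM was 1.99-fold that with GFP at 2 mM, and with ChREBPβ at 2 mM library a held 28595982 counts, while libraries b and c held 57726412 and 57313995. Levels are therefore given as CPM, counts relative to the library total after scaling by TMM factors. The rat Mlxipl entry, which encodes ChREBP, averaged 256 CPM in GFP libraries and 205 in ChREBPβ libraries at 2 mM, and 207 and 188 at 11 mM. The table also holds a row labelled ChREBPb, named after its values were seen, whose mean was 77.8 CPM with GFP against 90.2 with the ChREBPβ virus in 2 mM glucose (log2 0.21, adjusted p = 0.00841) and 68 against 88 in 11 mM glucose (0.37, adjusted p = 6.9e-05), without overlap of the libraries. What sequence this entry counts, and whether reads of the mouse transgene could be counted in either row, is not given in the sources used here, so neither checks the labels. Pklr, a known ChREBP target looked up after the data were seen, averaged 130 and 417 CPM at 2 mM and 211 and 446 at 11 mM, and no ChREBPβ library overlapped the GFP libraries of its glucose level. The summed level of 10 β-cell markers was 23400 to 26300 CPM with GFP at 2 mM, 19000 to 20900 with GFP at 11 mM, and 12000 to 13100 with ChREBPβ. Most of this sum was Ins1 and Chga, with means of 11700 and 9350 CPM with GFP at 2 mM. Of the 10, Slc2a2 went the other way and was higher with ChREBPβ (mean 438 CPM against 618 in 2 mM glucose, 489 against 675 in 11 mM glucose). Blood, endothelial and stromal markers summed to at most 3.47 CPM, with 5 of 8 under 1 CPM in all libraries. At these low levels they went in both directions. Pdgfrb was higher with ChREBPβ (mean 0.00972 CPM against 0.656 in 2 mM glucose, 0.00737 against 0.824 in 11 mM glucose). Cd68 was also higher (0.361 against 0.775, and 0.383 against 0.659), while Kdr was lower (1.16 against 0.674, and 1.59 against 0.804). Of 7 markers of other islet cells, 5 were under 1 CPM in every library. Gcg, which encodes glucagon, was lower with ChREBPβ, with means of 1620 CPM against 433 in 2 mM glucose and 1660 against 478 in 11 mM glucose. Ghrl had higher means with ChREBPβ (1.28 CPM against 1.84, and 1.36 against 1.56), with overlap of the libraries at both levels. The summed level of these 7 was 1590 to 1720 CPM over the GFP libraries and 431 to 503 over the ChREBPβ libraries. Of 7 acinar and ductal markers, 4 were under 1 CPM throughout, while the duct factor Sox9 was higher with ChREBPβ (mean 0.838 CPM against 8.19 in 2 mM glucose, 1.08 against 8.88 in 11 mM glucose), as was the keratin Krt7 (133 against 157, and 108 against 144). The summed level of these 7 was 109 to 145 CPM with GFP and 157 to 176 with ChREBPβ. In bulk RNA, fewer cells of a type and less RNA per cell cannot be told apart, and the part that these differences in markers have in the results below was not tested.

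Overexpression of ChREBPβ changed many of these genes in both directions, most of them by less than 1.5-fold. At 2 mM glucose 17 of the 35 tested genes (48.6%) passed the test, 10 higher and 7 lower, beside 44.1% of all tested genes (21% higher and 23.2% lower). At 11 mM glucose 13 passed (37.1%), 9 higher and 4 lower, beside 33.4% of all genes (14.3% higher and 19.1% lower). A gene was called when edgeR's quasi-likelihood test gave an adjusted p under 0.05 and the change was at least 1.2-fold (0.263 on the log2 scale). The share of these genes called was therefore close to that of all genes. As a median they stood 0.11 above GFP on the log2 scale at 2 mM and 0.05 at 11 mM, and the median of all genes was -0.02 at both levels. The 3 ChREBPβ libraries did not overlap the 3 GFP libraries for 24 of the 35 at 2 mM (68.6%, against 63.3% of all genes) and for 18 at 11 mM (51.4%, against 56.1%). With counts scaled by library totals alone, the calls were 7 higher and 7 lower at 2 mM and 5 higher and 6 lower at 11 mM, and the medians were 0.01 and -0.03. Upper quartile factors put them at 0.05 and 0.02. Leaving out 1 library moved the 11 mM median to 0.01 (without GFP library b or ChREBPβ library c) and up to 0.10 (without ChREBPβ library a). Over all genes the share of calls that were higher was 47.5% at 2 mM and 42.9% at 11 mM with TMM factors, and 33.2% and 29.3% with library totals.

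Gss alone moved by 2-fold or more, 1 of 35 genes, beside 9.93% of all genes at 2 mM and 6.76% at 11 mM that were called with a change of that size. With 35 genes this difference is not read as a trait of the group. Both comparisons called 8 of the genes higher and 4 lower, 0 were called in opposite directions, 5 were called at 2 mM and 1 at 11 mM, and 17 at neither. The same count was not made over all genes, so it is not read as particular to these genes. The comparisons at 2 mM and 11 mM share no libraries.

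**Figure D1:**
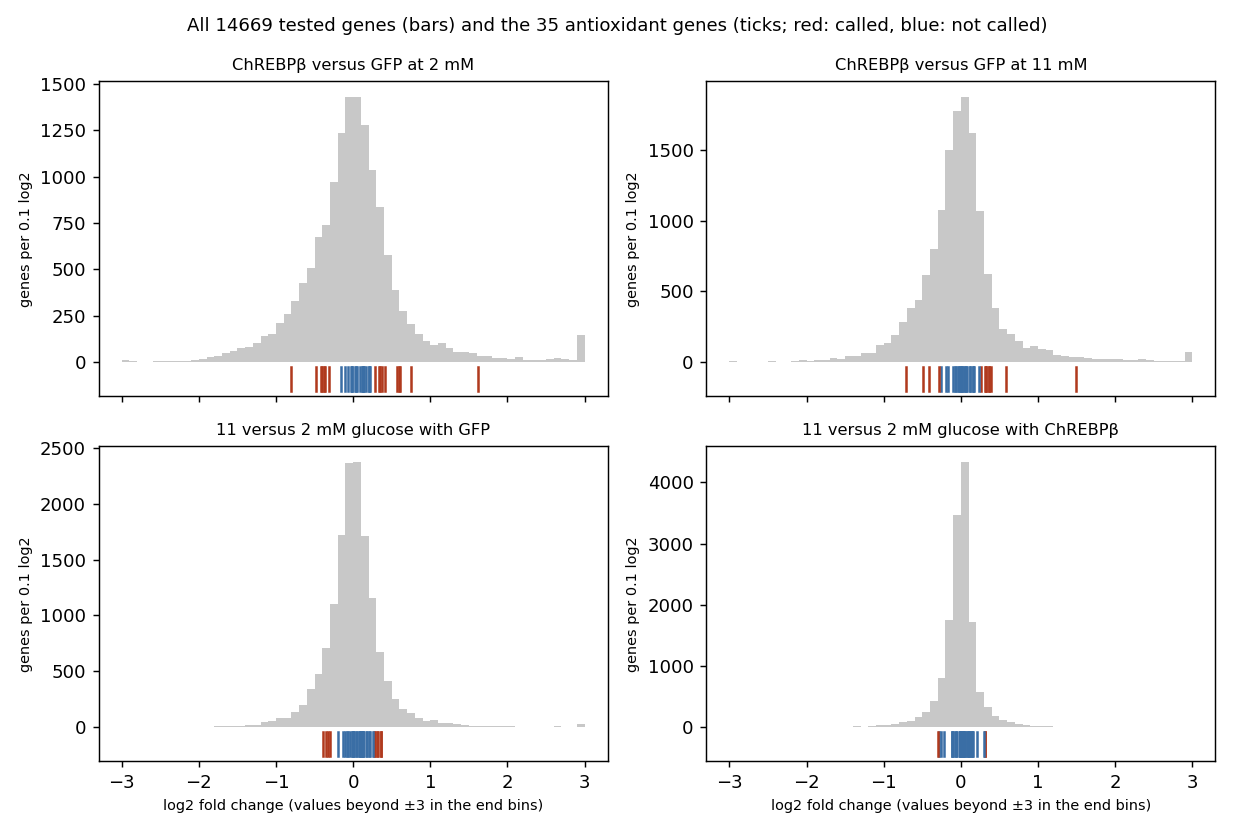
Grey bars count all 14669 tested genes by log2 fold change (x axis, 0.1 per bar) in 4 comparisons, and ticks below the bars mark the 35 antioxidant genes, red where called. Most ticks lie in the central part of each distribution. Farthest out in the ChREBPβ comparisons at 2 mM and 11 mM are Gss at 1.62 and 1.49 and Gpx3 at -0.81 and -0.72.

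Nfe2l2, which encodes Nrf2, was higher in every ChREBPβ library than in every GFP library. Its levels were 50.4, 53.7 and 49.2 CPM with GFP and 65.2, 65.5 and 62.6 with ChREBPβ at 2 mM, and 50.7, 49.5 and 52.7 with GFP and 65.1, 63.5 and 69.0 with ChREBPβ at 11 mM. It rose by 0.33 ± 0.050 (log2, SE) at 2 mM (adjusted p = 1.02e-05) and by 0.37 ± 0.049 at 11 mM (adjusted p = 3.04e-06). With library totals the change at 2 mM was 0.23, under the minimum fold. Keap1, which targets Nrf2 for degradation, had 71.3, 71.4 and 82.0 CPM with GFP and 81.9, 81.0 and 83.6 with ChREBPβ at 2 mM. Its groups overlapped there and at 11 mM, where it had 78.3, 69.6 and 78.6 CPM with GFP and 78.1, 82.9 and 84.1 with ChREBPβ. Neither difference passed the test (0.13, adjusted p = 0.0557, and 0.11, adjusted p = 0.11).

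The quinone, haem and sulfinic acid enzymes, which are commonly used as readouts of Nrf2, did not share a direction. Nqo1, a quinone reductase, had 21.4, 25.3 and 21.6 CPM with GFP and 16.6, 17.9 and 16.9 with ChREBPβ at 2 mM, without overlap. It fell by 0.41 ± 0.086 on the log2 scale (adjusted p = 0.000386). At 11 mM the groups overlapped (19.1, 16.8 and 18.4 against 13.97, 16.3 and 17.5 CPM) and the difference of -0.19 was not called (adjusted p = 0.0661), although it was called with library totals (-0.27) and without ChREBPβ library c (-0.26, adjusted p = 0.0225). Hmox1, the inducible haem oxygenase, averaged 12.8 CPM ± 0.61 (SD, n = 3) with GFP and 12.6 ± 1.13 with ChREBPβ at 2 mM. In 11 mM glucose these means were 10.0 ± 1.08 and 10.4 ± 0.84. Its differences were -0.02 and 0.05 (adjusted p = 0.896 and 0.655). Srxn1 (sulfiredoxin), which repairs overoxidised peroxiredoxins, rose at both levels, from a mean of 10.5 CPM ± 0.32 to 13.6 ± 2.1 at 2 mM (0.38, adjusted p = 0.00468) and from 13.1 ± 1.34 to 15.7 ± 1.24 at 11 mM (0.27, adjusted p = 0.0296). Its call at 2 mM was lost without ChREBPβ library b (0.24, adjusted p = 0.0574). At 11 mM it was lost without GFP library b (0.20, adjusted p = 0.113), without GFP library c (0.25, adjusted p = 0.0829) and without ChREBPβ library b (0.20, adjusted p = 0.145).

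The 4 genes of glutathione synthesis and reduction split by step. Gss, which adds glycine in the final step of synthesis, had 26.3, 27.0 and 28.0 CPM with GFP and 82.7, 84.1 and 83.8 with ChREBPβ at 2 mM. At 11 mM it had 30.4, 32.9 and 35.0 with GFP and 82.0, 95.0 and 99.0 with ChREBPβ. The lowest ChREBPβ library was thus more than 2-fold above the highest GFP library. Gss rose 3.08-fold at 2 mM (log2 1.62 ± 0.067, adjusted p = 5.05e-14) and 2.81-fold at 11 mM (1.49 ± 0.064, adjusted p = 1.61e-13), and it was called in every alternative run. In the GRCr8 annotation Gss overlaps Myh7b, a myosin heavy chain gene, whose mean with GFP was 0.715 CPM at 2 mM and 1.13 at 11 mM, against 2.13 and 2.60 with ChREBPβ. Myh7b also rose (log2 1.56 and 1.22, adjusted p = 3.93e-05 and 0.000136), and whether reads were shared between the 2 genes was not tested. Other genes of this group also overlap annotated genes, among them Gsr, Txnrd1, Cat and Msra, and sharing of reads was not tested there either.

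The glutamate-cysteine ligase subunits, which catalyse the rate-limiting step, were lower where they differed. Gclm, the modifier subunit, whose promoter holds an antioxidant response element core, had 83.2, 80.2 and 75.0 CPM with GFP and 57.8, 64.3 and 60.8 with ChREBPβ at 2 mM. In 11 mM glucose it had 87.6, 87.6 and 86.1 with GFP and 63.0, 67.0 and 66.4 with ChREBPβ. No library overlapped, and Gclm fell by 0.38 ± 0.050 at 2 mM (adjusted p = 2.22e-06) and by 0.41 ± 0.049 at 11 mM (adjusted p = 8.03e-07). Gclc, the catalytic subunit, was lower in every ChREBPβ library at each level, with means of 30.9 and 28.8 CPM at 2 mM and 33.4 and 29.8 at 11 mM, but its log2 differences of -0.10 (adjusted p = 0.107) and -0.16 (adjusted p = 0.0109, under the minimum fold) were not called.

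Gsr, which reduces oxidised glutathione with NADPH, had 201.5, 212.6 and 198.1 CPM with GFP and 298.4, 299.2 and 306.3 with ChREBPβ at 2 mM. It had 268.9, 252.7 and 268.1 with GFP and 309.3, 341.0 and 339.6 with ChREBPβ at 11 mM. The groups did not overlap at either level. Gsr rose 1.48-fold at 2 mM (log2 0.56 ± 0.045, adjusted p = 1.78e-09) and 1.25-fold at 11 mM (0.33 ± 0.044, adjusted p = 4.49e-06). At 11 mM it was under the minimum fold with library totals (0.24).

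**Figure D2:**
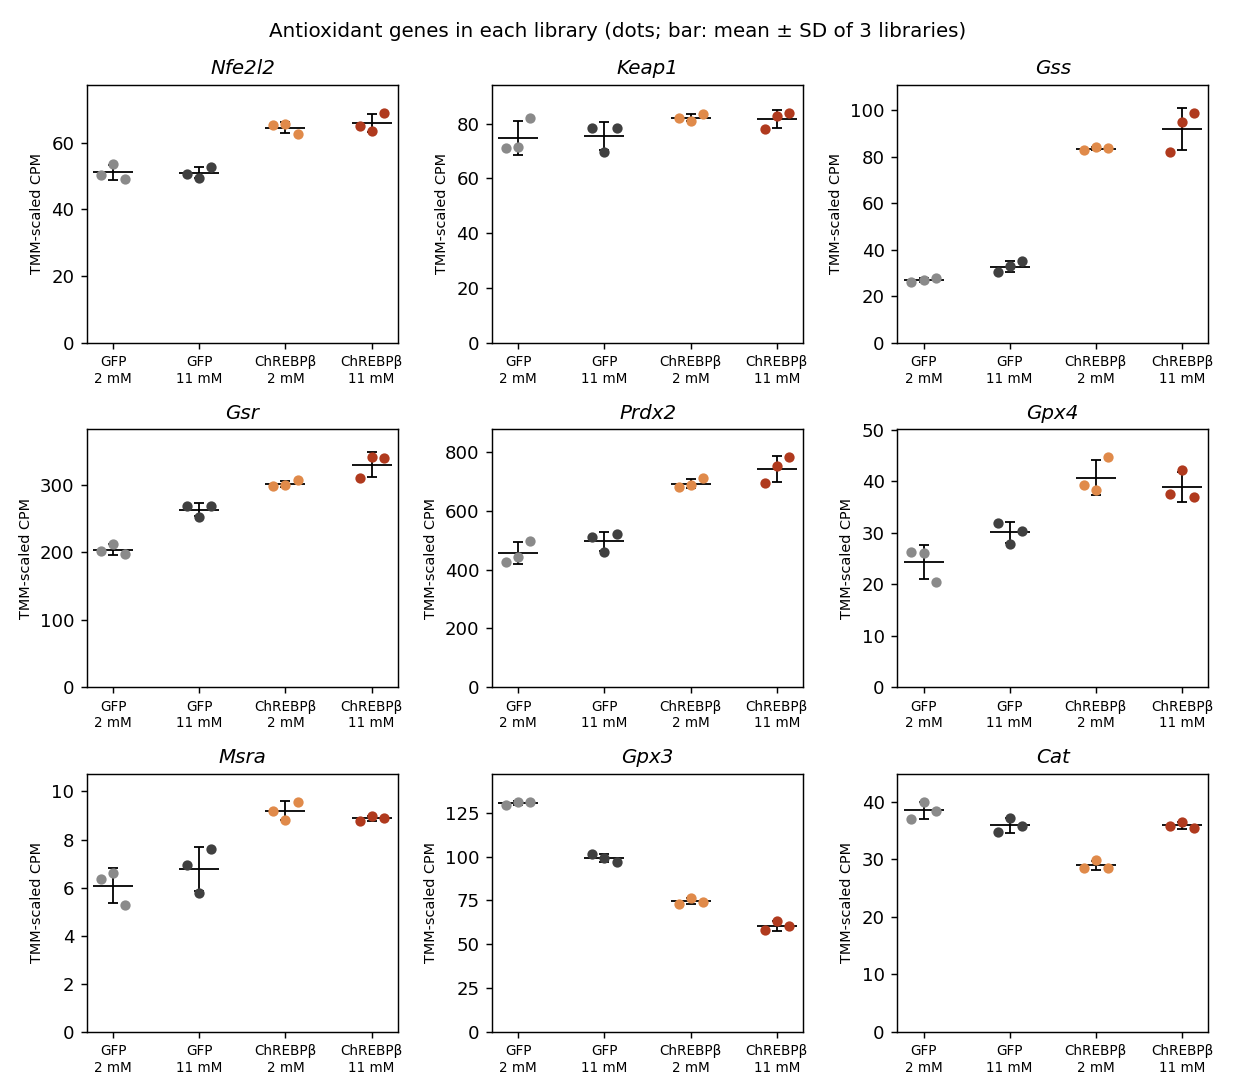
Dots give the TMM-scaled CPM (y axis, linear, from 0) of 9 antioxidant genes in each of the 12 libraries by group (x axis), with bars for the mean ± SD of 3 libraries. Gss, Gsr, Prdx2, Gpx4 and Msra lie higher with ChREBPβ, Gpx3 lies lower, Cat is low with ChREBPβ at 2 mM alone, and Keap1 overlaps.

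Of the 4 tested thioredoxin genes of this group (Txn2, Txnrd1, Txnrd2 and Nxn), 0 were called for ChREBPβ at either glucose level. Over all tested genes 44.1% were called at 2 mM and 33.4% at 11 mM. The cytosolic thioredoxin Txn1 and the inhibitor Txnip are not in this group, and both rose with ChREBPβ at 2 mM, as given with the other lists below. Txn2, the mitochondrial thioredoxin, differed by 0.21 (adjusted p = 0.00156) and 0.17 (adjusted p = 0.00939), both under the minimum fold. Txnrd1, the cytosolic reductase, whose promoter window holds a match to the response element, averaged 310 CPM ± 7.0 with GFP and 361 ± 10.6 with ChREBPβ at 2 mM, a difference of 0.22 (1.16-fold, adjusted p = 7.73e-05) that was also under the minimum. At 11 mM its means were 398 ± 6.9 and 403 ± 13.7 CPM (0.02, adjusted p = 0.769). Txnrd2, the mitochondrial reductase, and Nxn (nucleoredoxin) had differences between -0.04 and 0.11, none of them called.

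Of the 6 peroxiredoxins, which reduce peroxides with electrons mostly from thioredoxin, 2 rose at 2 mM and 1 at 11 mM, and 0 fell. Over all tested genes 21% rose and 23.2% fell at 2 mM, and 14.3% rose and 19.1% fell at 11 mM. With 6 genes the counts are not read as a trait of the family. Prdx2, a cytosolic form, had 426.3, 444.5 and 498.1 CPM with GFP and 681.4, 686.4 and 710.1 with ChREBPβ at 2 mM. In 11 mM glucose Prdx2 had 509.3, 459.2 and 520.7 with GFP and 694.3, 751.3 and 782.6 with ChREBPβ. The groups were far apart at each level, and Prdx2 rose 1.52-fold (log2 0.60 ± 0.058, adjusted p = 2.6e-08) and 1.5-fold (0.58 ± 0.057, adjusted p = 5.95e-08). Prdx6, the form that draws on glutathione, rose from a mean of 12.9 CPM ± 0.49 to 17.1 ± 1.07 at 2 mM (0.41, adjusted p = 7.32e-05) and was under the minimum fold at 11 mM (0.23, adjusted p = 0.00794). Prdx3, the mitochondrial form, and Prdx1, with a response element core in its promoter window, were under the minimum fold at 2 mM (0.20 and 0.12) and at -0.01 and 0.04 at 11 mM. Prdx4, of the endoplasmic reticulum and the gene with the E-box, and Prdx5 lay between -0.07 and 0.08 in both comparisons.

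Superoxide and hydrogen peroxide enzymes also differed among themselves. Sod2, the mitochondrial superoxide dismutase, rose from 152 CPM ± 3.86 to 185 ± 4.02 at 2 mM (1.21-fold, log2 0.28, adjusted p = 6.12e-06). This call was lost with upper quartile factors (0.22) and library totals (0.18), and at 11 mM the difference of 0.12 (adjusted p = 0.0146) was under the minimum fold. Sod1, the cytosolic form, was at -0.15 and -0.10 (adjusted p = 0.0536 and 0.193). Cat, which encodes catalase, had 37.0, 40.0 and 38.4 CPM with GFP and 28.4, 29.9 and 28.4 with ChREBPβ at 2 mM. In 11 mM glucose it had 34.7, 37.2 and 35.7 with GFP and 35.8, 36.5 and 35.4 with ChREBPβ. The groups were separate at 2 mM and overlapped at 11 mM. Cat fell by 0.41 ± 0.052 at 2 mM (adjusted p = 1.09e-06), and its difference at 11 mM was 0.00 (adjusted p = 0.982).

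The 2 glutathione peroxidases that could be tested moved in opposite directions. Gpx3, the secreted form, had 129.5, 131.5 and 131.5 CPM with GFP and 73.0, 76.5 and 74.4 with ChREBPβ at 2 mM. At 11 mM it had 101.7, 99.4 and 97.2 with GFP and 58.0, 63.5 and 60.2 with ChREBPβ. The 4 groups did not overlap one another. Gpx3 fell by 0.81 ± 0.044 at 2 mM (adjusted p = 4.07e-12) and by 0.72 ± 0.043 at 11 mM (adjusted p = 3.7e-11), the largest decreases among the tested antioxidant genes. Gpx4, which reduces lipid hydroperoxides in membranes, had 26.3, 26.1 and 20.5 CPM with GFP and 39.3, 38.3 and 44.7 with ChREBPβ at 2 mM. Its levels at 11 mM were 32.0, 27.9 and 30.4 with GFP and 37.6, 42.2 and 36.9 with ChREBPβ. No library of a ChREBPβ group fell to the level of its control group, and Gpx4 rose 1.68-fold at 2 mM (0.75 ± 0.087, adjusted p = 3.86e-07) and 1.29-fold at 11 mM (0.37 ± 0.083, adjusted p = 0.00101).

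Glutathione transferases, which couple glutathione to reactive compounds, were called higher for 1 and lower for 2 of 7 tested genes at 2 mM. At 11 mM 2 were called higher and 1 lower. The shares of all tested genes were 21% higher and 23.2% lower at 2 mM, and 14.3% and 19.1% at 11 mM. With 7 genes the counts are not read as a trait of the family. Gsto1, an omega-class form, rose from means of 245 to 313 CPM at 2 mM (0.35, adjusted p = 7.53e-07) and from 231 to 289 at 11 mM (0.32, adjusted p = 3.31e-06), but fell short of the minimum fold with library totals (0.25 and 0.24). Mgst3, a microsomal form of low level, fell from 4.50 to 3.50 CPM (by 0.36, adjusted p = 0.021) and from 4.11 to 2.92 (by 0.49, adjusted p = 0.00275). Its call at 2 mM was lost without GFP library b (-0.35, adjusted p = 0.0565), GFP library c (-0.31, adjusted p = 0.0754) or ChREBPβ library c (-0.35, adjusted p = 0.0587). Gstm1, of the mu class, fell from 12 to 9.68 CPM at 2 mM (by 0.31, adjusted p = 0.0076), and was under the minimum fold without GFP library c (-0.26) or ChREBPβ library c (-0.26). At 11 mM it was under the minimum in the full data (-0.25, adjusted p = 0.0201) and passed it with upper quartile factors (-0.29), with library totals (-0.34), and without GFP library a (-0.27), GFP library b (-0.31), ChREBPβ library b (-0.29) or ChREBPβ library c (-0.29). Gstt1, of the theta class, rose at 11 mM (13.3 to 16.5 CPM, 0.31, adjusted p = 0.0117). That call was lost without ChREBPβ library c (0.24, adjusted p = 0.0675) and with library totals (0.22). Gsta4, Mgst1 and Mgst2 were not called in either comparison.

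Msra, which reduces oxidised methionine and was counted with the glutaredoxins, had 6.36, 6.62 and 5.26 CPM with GFP and 9.20, 8.81 and 9.58 with ChREBPβ at 2 mM. It had 6.93, 5.79 and 7.59 with GFP and 8.77, 8.97 and 8.91 with ChREBPβ at 11 mM. The groups did not overlap. Msra rose 1.51-fold at 2 mM (0.60 ± 0.109, adjusted p = 9.57e-05) and 1.31-fold at 11 mM (0.39 ± 0.102, adjusted p = 0.00374). Glrx, the cytosolic glutaredoxin, which removes glutathione from protein thiols, fell from a mean of 14.6 CPM ± 0.44 to 10.4 ± 1.03 at 2 mM (by 0.48, adjusted p = 4.01e-05) and from 12.7 ± 0.52 to 10.4 ± 0.48 at 11 mM (by 0.29, adjusted p = 0.00463). Its call at 11 mM was under the minimum fold without GFP library c (-0.26) or ChREBPβ library c (-0.25). The mitochondrial Glrx2 and Glrx5 lay between -0.07 and 0.17 and were not called.

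**Figure D3:**
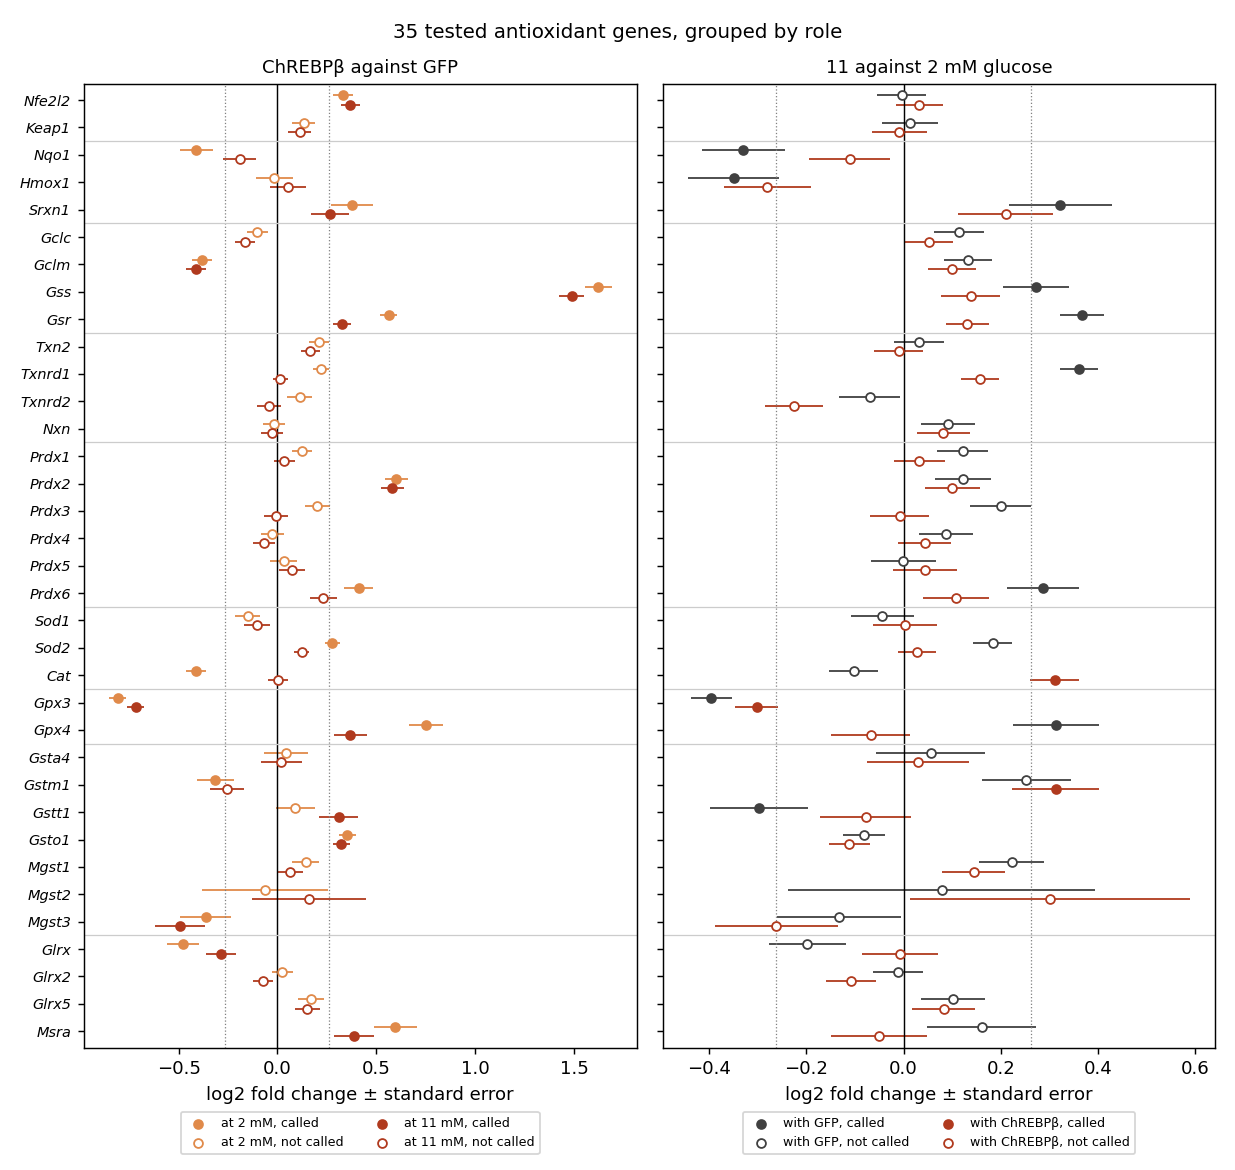
Log2 fold change ± SE (x axis) of the 35 tested genes in order of role (y axis), for ChREBPβ against GFP on the left and 11 against 2 mM glucose on the right; filled points were called and dotted lines mark 1.2-fold. The left panel spans -0.81 to 1.62 and the right panel -0.40 to 0.37.

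Glucose alone, in cells with the GFP virus, called 10 of the 35 genes (28.6%), 6 higher and 4 lower, beside 20.2% of all genes (10.2% higher and 10% lower), and no change reached 0.5 on the log2 scale. The groups did not overlap for 17 genes (48.6%, against 42% of all genes). These GFP libraries are also the controls of the ChREBPβ comparisons, so the values are given side by side and not as independent evidence. Gsr rose 1.29-fold with glucose (log2 0.37, adjusted p = 3.24e-06) and Txnrd1 rose 1.28-fold (0.36, adjusted p = 7.91e-07). Gpx3 fell by 0.40 (adjusted p = 7.97e-07) and Hmox1 fell by 0.35 (adjusted p = 0.00705), from 12.1, 13.2 and 13.1 CPM to 11.3, 9.35 and 9.48. These 4 genes were called in every alternative run.

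The other 6 calls between 11 and 2 mM with GFP depended on a library. Nqo1 fell by 0.33 (adjusted p = 0.00515) but was at -0.24, under the minimum fold, without 2 mM library b, and Gpx4 rose by 0.31 (adjusted p = 0.00942) but was at 0.20 (adjusted p = 0.0707) without 2 mM library c. Srxn1 (0.32, adjusted p = 0.0242) was lost without 2 mM library b (0.32, adjusted p = 0.057), 2 mM library c (0.30, adjusted p = 0.0745) or 11 mM library a (0.24, adjusted p = 0.124). Gss (0.27, adjusted p = 0.00424) was under the minimum fold without 2 mM library a (0.25) or 11 mM library c (0.22), and Prdx6 (0.29, adjusted p = 0.00495) without 11 mM library a (0.26) or c (0.26). Gstt1 (-0.30, adjusted p = 0.0274), whose groups overlapped, was lost without 2 mM library b (-0.23, adjusted p = 0.132) or c (-0.22, adjusted p = 0.142) and without 11 mM library a (-0.29, adjusted p = 0.0651) or c (-0.29, adjusted p = 0.076). In the other direction, Gstm1 (0.25, under the minimum fold) was called without 2 mM library c (0.31) or 11 mM library b (0.31), and Mgst1 (0.22) without the same libraries (0.26 and 0.28).

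In cells with ChREBPβ, 11 mM against 2 mM glucose called 3 of the 35 genes (8.57%), 2 higher and 1 lower, beside 3.87% of all genes (0.988% higher and 2.88% lower). The groups did not overlap for 12 (34.3%, against 28.9%). Gpx3 fell by 0.30 (adjusted p = 0.000176) and Cat rose by 0.31 (adjusted p = 0.000564). Gstm1 rose by 0.31 (adjusted p = 0.0382), but this call was lost without 2 mM library a (0.34, adjusted p = 0.0648), b (0.34, adjusted p = 0.0755) or c (0.26, adjusted p = 0.208) and without 11 mM library b (0.27, adjusted p = 0.152) or c (0.28, adjusted p = 0.145). Hmox1 was at -0.28 (adjusted p = 0.0625), and was called without the 11 mM GFP library a (adjusted p = 0.0475) or b (adjusted p = 0.0472). Srxn1 was at 0.21 (adjusted p = 0.225), and was called without the 2 mM ChREBPβ library b (0.35, adjusted p = 0.0386).

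The difference between the ChREBPβ effects at 11 and 2 mM was tested for each gene as an interaction. Only Cat was called among the 35 genes (2.86%), beside 6.31% of all genes (1.56% higher and 4.74% lower). Its effect was 0.41 ± 0.072 higher at 11 mM than at 2 mM (adjusted p = 0.00098), and this call held in every alternative run. In levels, catalase mRNA was at 28.4 to 29.9 CPM with ChREBPβ at 2 mM and at 34.7 to 40.0 CPM in all 9 other libraries. The effects on Gsr (0.56 and 0.33), Txnrd1 (0.22 and 0.02) and Gpx4 (0.75 and 0.37) were smaller at 11 mM, by differences of -0.24 (adjusted p = 0.0242), -0.20 (adjusted p = 0.0266) and -0.38 (adjusted p = 0.0563). The former pair were under the minimum fold, and Gpx4 did not pass the threshold. Gsr was called without the GFP 2 mM library b (-0.27) or the GFP 11 mM library b (-0.27). Gpx4 was called with DESeq2 (adjusted p = 0.0381), with no filter on low counts (adjusted p = 0.00176), and without the GFP 2 mM library a (-0.44) or b (-0.44), the GFP 11 mM library b (-0.43) or the ChREBPβ 11 mM library b (-0.45). Over all genes, 24.8% of interaction calls were positive with TMM factors and 35.3% with upper quartile factors.

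Beyond the 41 genes, 8 lists of other genes of the pathway gave the setting. Their counts are read beside the shares of all tested genes, of which 21% rose and 23.2% fell at 2 mM and 14.3% rose and 19.1% fell at 11 mM, and with 8 to 18 tested genes a list nothing particular to a list is drawn from them. Among 14 Nrf2 partners and members of the Keap1 complex, 4 rose and 1 fell at 2 mM, and 2 rose and 1 fell at 11 mM. Bach1, a repressor that competes with Nrf2 at antioxidant response elements, had 11.9 to 14.4 CPM with GFP and 32.2 to 33.4 with ChREBPβ at 2 mM, and 14.9 to 15.6 and 31.7 to 33.0 at 11 mM. It rose 2.47-fold (log2 1.30, adjusted p = 1.52e-12) and 2.13-fold (1.09, adjusted p = 1.46e-11). Mafk, a small Maf partner of both Bach1 and Nrf2, rose by 0.82 and 0.73. Cul3, the ubiquitin ligase scaffold used by Keap1, fell by 0.36 and 0.29. Rbx1, the RING subunit of that ligase, rose by 0.29 at 2 mM, a call under the minimum fold without the GFP library c (0.25), with upper quartile factors (0.24) and with library totals (0.19).

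Of 17 other tested Nrf2 target genes, 3 rose and 6 fell at 2 mM and 3 rose and 5 fell at 11 mM, with medians of -0.12 and -0.16, so that 9 of 17 were called at 2 mM beside 44.1% of all genes. The 3 that rose at 2 mM were Slc7a11, Tkt and Taldo1. The largest decreases at 2 mM were in Aldh7a1, an aldehyde dehydrogenase (by 0.74), Pir, which encodes pirin (by 0.58), and the exporter Abcc4 (by 0.57). In the list of cystine, cysteine and glutathione turnover, 5 of 12 rose and 2 fell at 2 mM and 3 rose and 1 fell at 11 mM. Slc7a11, the cystine importer, was at low levels of 0.698, 0.729 and 0.449 CPM with GFP at 2 mM, 1.57, 1.45 and 1.82 with GFP at 11 mM, 2.11, 2.60 and 2.31 with ChREBPβ at 2 mM and 4.28, 2.86 and 2.94 with ChREBPβ at 11 mM. It rose with ChREBPβ by 1.91 at 2 mM (adjusted p = 1.4e-06) and 1.05 at 11 mM (adjusted p = 0.000108), and with glucose in GFP cells by 1.37 (adjusted p = 0.000343). Chac1, which degrades glutathione, rose by 1.13 at both levels. Ggt1, which cleaves extracellular glutathione, rose by 1.38 at 2 mM, from 0.110, 0.408 and 0.417 CPM with GFP to 1.36, 0.553 and 0.752 with ChREBPβ. These are low levels, of 3 to 14 and 31 to 42 counts in libraries of unequal depth. Anpep, an aminopeptidase, fell by 0.45 at 2 mM.

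Among 11 genes of NADPH supply, 5 rose and 2 fell at 2 mM and 3 rose and 3 fell at 11 mM. Tkt, the transketolase of the pentose phosphate pathway, rose from a mean of 230 CPM to 675 at 2 mM (log2 1.56) and from 340 to 794 at 11 mM (1.23). Taldo1, the transaldolase of that pathway, rose by 0.61 and 0.59, and Me3, a mitochondrial malic enzyme, by 1.2 and 0.65. Idh1, the cytosolic isocitrate dehydrogenase, fell by 1.23 and 0.92, and Nnt, the mitochondrial transhydrogenase, fell by 0.60 and 0.58.

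Among 11 thioredoxin regulators, 4 rose and 3 fell at 2 mM and 2 rose and 3 fell at 11 mM. Txnip, which binds and inhibits thioredoxin and is a known ChREBP target, had 26.8, 24.4 and 27.7 CPM with GFP at 2 mM, 334.5, 347.3 and 370.4 with GFP at 11 mM, 450.0, 471.7 and 448.5 with ChREBPβ at 2 mM and 662.4, 659.0 and 677.4 with ChREBPβ at 11 mM. The 4 groups were separate, and Txnip rose with ChREBPβ by 4.12 at 2 mM (adjusted p = 2.12e-21) and by 0.93 at 11 mM (adjusted p = 1.54e-12). Txn1, the cytosolic thioredoxin, named after its values were seen, rose by 0.28 at 2 mM (adjusted p = 8.48e-05), under the minimum fold without the GFP library c (0.25), with upper quartile factors (0.22) or with library totals (0.18), and was at 0.09 at 11 mM. Txndc12, an endoplasmic reticulum thioredoxin, rose by 0.46 and 0.47. Txnl1, a thioredoxin-like protein, rose by 0.28 at 2 mM, but was under the minimum fold with upper quartile factors (0.23) and library totals (0.19). Sesn2 and Sesn3, stress-induced sestrins, fell by 0.51 and 0.50 at 2 mM, and Txndc5, a protein disulfide isomerase, fell by 0.32.

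Selenoprotein genes and their synthesis factors numbered 18, of which 4 rose and 3 fell at 2 mM and 2 rose and 2 fell at 11 mM. The largest changes at 2 mM were increases of 0.66 for Selenoi, a phospholipid enzyme, 0.46 for Sephs2, which makes the selenium donor, and 0.37 for Selenop, a selenium carrier, with Scly, Selenom and Selenoo falling by 0.68, 0.65 and 0.28. Among 13 other tested members of the same enzyme families, 2 rose and 7 fell at 2 mM and 2 rose and 6 fell at 11 mM, with medians of -0.40 and -0.28. Msrb2, a mitochondrial methionine sulfoxide reductase, rose from a mean of 11.8 CPM to 44.3 at 2 mM (log2 1.91) and from 18.1 to 49.0 at 11 mM (1.44). The transferases Gstk1, Gstm7 and Gstz1 fell by 0.90, 0.87 and 0.59 at 2 mM, and Gsto2 rose by 0.56 (adjusted p = 0.0242), a call lost without the GFP library b (0.41, adjusted p = 0.13) or the ChREBPβ library c (0.44, adjusted p = 0.121). Of 8 tested NADPH oxidases and other peroxide sources, 1 rose and 4 fell at 2 mM, and 0 rose and 4 fell at 11 mM. Maob, a monoamine oxidase, fell by 1.47 and 1.37, and Ero1b and Ero1a, oxidases of disulfide formation, fell by 1.26 and 0.51 at 2 mM. Duox2 rose by 2.07 at 2 mM, from 0.368, 0.117 and 0.0641 CPM with GFP to 0.573, 0.570 and 1.04 with ChREBPβ. Its counts were also low, at 2 to 10 and 16 to 58 a library.

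**Figure D4:**
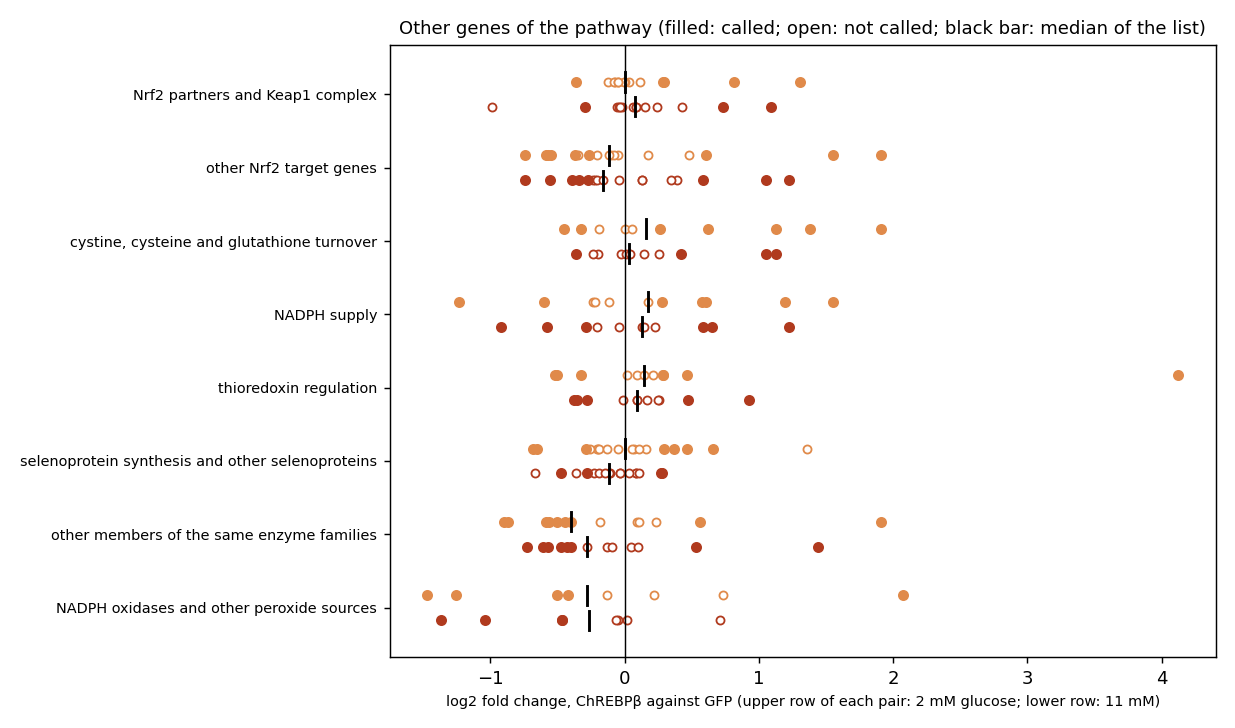
Log2 fold changes for ChREBPβ against GFP (x axis) of the tested genes of 8 further lists (y axis), at 2 mM (upper row) and 11 mM (lower row), filled where called, with a black bar at each list's median. Called genes lie on both sides of 0 in every list except the peroxide sources at 11 mM, where the called genes lie below 0, and Txnip at 2 mM lies farthest right at 4.12.

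The remaining members of the group gave no comparison. Gstm2 is not analysed here. Sod3, Gpx1, Gpx7, Gpx8 and Gstp1 had at most 0.368 CPM in any library and were not tested. Gpx1 and Gstp1 are commonly abundant in cultured cells, and Fth1, the ferritin heavy chain gene of a companion list, was listed at 0 counts in all 12 libraries, while Actb and Gapdh, looked up after the data were seen, had at least 1480 and 1221 CPM. How reads that match several near-identical copies were counted is not given in the sources used here, so no statement is made on whether these genes are expressed, and the levels of transferases with close relatives (Gstm1, Gstm7, Gstm4) carry the same uncertainty.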

How the data were processed

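Total RNA of 12 INS-1 832/13 libraries was amplified with the NuGEN Ovation V2 system and sequenced. The authors deposited raw counts per gene without normalization, and group means, which match the average of the corresponding 3 count columns in each of the 28728 rows (within 0.01 counts) and served for that check alone. The submitters' processing notes name Rnor_6.0 and edgeR with no role; the aligner, counter and strand setting are not given in the sources used here. Amplified reads are not independent molecules, so counting limits cover counting error only.

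Samples were grouped by their labels. The entry that names no gene (1) was dropped. Counts were filtered with filterByExpr, scaled with TMM factors and fitted for all 12 libraries in 1 quasi-likelihood model by group (R 4.3.3, edgeR 4.0.16), and p-values were adjusted by Benjamini-Hochberg in each of 5 comparisons, over 14669 genes. The standard error is the log2 fold change divided by the square root of F. Alternatives were RLE and upper quartile factors, library totals, DESeq2 1.42.0, a filter of 10 counts or none, a block for the replicate letter, no minimum fold, a fit restricted to the groups at hand, and the omission of each library. The tests were checked on simulated counts with few changed genes, equally many up and down. That check does not cover the choice of scaling in these data. The members and the other gene lists were chosen with earlier results of these data known. Values per library are given for Nfe2l2, Keap1, members called in both ChREBPβ comparisons with a log2 change of at least 0.5 in either, and members called in the interaction, with others where a result turns on them; from each other list, the 3 largest increases and decreases called at 2 mM, Slc7a11 and Txnip. A result that this rule would name is not reported here. Promoters and names came from RefSeq (GRCr8), a different build from that of the counts. Figures were drawn with matplotlib 3.10.9.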

Additional observations from a re-analysis of the deposited data

Results flagged for a closer look

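Each result below is a difference between the effect of ChREBPβ at 11 mM and at 2 mM glucose that passed edgeR's interaction test (log2, 11 minus 2 mM). Among the antioxidant genes it was Cat alone, at 0.41 (adjusted p = 0.00098), lower with ChREBPβ at 2 mM in 3 of 3 libraries and overlapping its control at 11 mM.

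In the other lists Txnip differed by -3.20 (adjusted p = 7.35e-17), Me3 by -0.55 (adjusted p = 0.0106), Msrb2 by -0.47 (adjusted p = 0.00273), Mthfd1, a folate enzyme that yields NADPH, by -0.43 (adjusted p = 0.00018), Selenop by -0.40 (adjusted p = 0.00157) and Selenoi by -0.39 (adjusted p = 0.00312). These 6 effects were smaller at 11 mM than at 2 mM, or near 0 at 11 mM. Tkt differed by -0.33 (adjusted p = 0.0172), which was lost without the GFP 11 mM library c (-0.31, adjusted p = 0.0543) or the ChREBPβ 2 mM library b (-0.32, adjusted p = 0.053). Idh1 differed by 0.31 (adjusted p = 0.0219), lost without the GFP 2 mM library b (0.29, adjusted p = 0.053), the ChREBPβ 2 mM libraries b (0.25, adjusted p = 0.0844) or c (0.31, adjusted p = 0.0533), or the ChREBPβ 11 mM library c (0.28, adjusted p = 0.0571). Gstm7 differed by 0.30 (adjusted p = 0.00991), under the minimum fold without the GFP 2 mM library c (0.26). The glucose levels also differ in the GFP control itself, which enters each of these differences.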

How the results depend on the processing

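Other scalings, tools, filters, the block, folds and groups gave 1540 values of single antioxidant genes. Of these, 1499 kept their side of the threshold, 13 lost a call, 28 gained one and 0 reversed. Leaving out each of 12 libraries gave 2052, 30, 18 and 0 of 2100. A value was counted as reversed only where either run called it. A change of sign in a value called in neither run was counted as kept. Called under every alternative were 11 of 17 genes at 2 mM, 8 of 13 at 11 mM, 4 of 10 for glucose with GFP, 2 of 3 with ChREBPβ, and Cat in the interaction. Library totals moved the median of all genes to -0.12 at 2 mM and -0.10 at 11 mM and left 5 higher calls at 11 mM. No minimum fold gave 11 higher calls for glucose with GFP. Lower calls for glucose with ChREBPβ were 2 with library totals, DESeq2, no filter, no minimum fold or only the groups compared. Lower interaction calls were 1 with DESeq2 or no filter and 2 with no minimum fold. Leaving out a library gave 2 to 4 lower calls for glucose with GFP (2 without GFP 2 mM library b), 1 to 2 higher and 1 to 2 lower with ChREBPβ, and 0 to 2 lower interaction calls. The cause was not tested beyond the looser rule itself.

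Libraries with the same letter did not detectably deviate together (correlations -0.11 to 0.05, 0 of 12 over 0.1), while those with different letters reached 0.16. The labels do not say whether libraries of a letter were prepared together. With the replicate block 6449 and 4861 of all genes were called at 2 and 11 mM; among the antioxidant genes it removed Srxn1 at 11 mM (0.26, just under the minimum fold) and changed no other call. Genes under about 1 CPM are limited by depth: 3 counts correspond to at most 0.11 CPM.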
